A study of Homo sapiens with 8 samples.

Results

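Cells of the erythroleukaemia line HEL92.1.7 and of a derivative that persists in or resists OTX015, named HEL OTX P/R by the submitters, were compared with both lines under the drug. OTX015 (birabresib) occupies the acetyl-lysine pockets of the BET bromodomain proteins and displaces them from chromatin. The comparison used 2 libraries of HEL OTX P/R cells and 2 of HEL92.1.7 cells, each harvested after 8 hours in 1000 nM OTX015, which is 4 of the 8 libraries of the series. The other 4 libraries, 2 of each line with no drug, supplied the same line contrast without OTX015. All groups shared the HEL background and serum-rich culture, and the labels class the material as blast cells of secondary acute myeloid leukaemia. Below, HEL92.1.7 cells are parental and the derivative is P/R. There is 1 derivative line, and the labels do not say whether it is clonal or was kept in OTX015 until the experiment. The genes described are those with at least 1 FPKM (fragments scaled by transcript length and by library size) in at least 2 of the 8 libraries, 11255 of the 19718 genes in the table.

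BET proteins read acetylated histones at enhancers and promoters and bring the elongation factor P-TEFb to RNA polymerase II. Blocking them lowers the transcription of enhancer-driven lineage genes and of MYC, and frees P-TEFb from its inhibitor HEXIM1, whose own gene then rises. HEL cells carry an active JAK2 mutant and sit at the branch between the red cell and the megakaryocyte lineages, expressing globin genes beside platelet genes. Beta-catenin, TCF7L2, JMJD6 and MYC, the axis in the title of the series, are given separately below.

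The libraries matched their labels as a red cell and platelet line. All 10 erythroid markers passed 1 FPKM, and their summed level under OTX015 was 19354 to 20257 FPKM in parental cells and 18009 to 19178 in P/R cells. Nearly all of that sum came from the globins HBG2, HBE1 and HBG1, and HBG2 and HBE1 held tied values across libraries. Of 9 monocyte or granulocyte markers only LYZ and CD33 reached 1 FPKM, ELANE and S100A8 were listed at 0, and none of the 7 defining epithelial or stromal markers EPCAM, CDH1, KRT5, COL1A1, COL3A1, DCN and PDGFRB, a set without the keratins described below, reached 1 FPKM. Pearson's r across genes, which are not independent replicates, was 0.9957 to 0.9966 between libraries of 1 group and 0.9591 to 0.9846 between groups. The values had been quantile normalized before deposition, so sequencing depth is unknown, a change in total RNA cannot be seen, and genes of equal rank share a value. The labels call the replicates biological and separately treated, and p-values measure only the spread between these samples of 1 line each.

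Under OTX015, 1432 genes were higher in P/R cells (12.7%) and 1315 were lower (11.7%), 2747 in all (24.4%), by limma on log2(FPKM + 1) at an adjusted p under 0.05. These shares of all genes, 12.7% and 11.7%, are the background for the list counts below. Most differences were small. The median among genes called was 0.45 on the log2 scale for those higher and −0.41 for those lower, against −0.01 over all genes tested. Differences of at least 1 on the log2 scale were reached by 128 genes upward (1.14%) and 65 downward (0.578%), and without drug by 112 (0.995%) and 88 (0.782%). The 15 largest rises by the naming rule included the platelet chemokine PF4, keratins 18 and 8, KALRN, NNMT and MAGEA antigens. The histones HIST1H1C and HIST1H2BK and the platelet glycoprotein GP6 were also among them. GALNS, APOE, the receptor tyrosine kinase KIT and granule proteins of mast cells and eosinophils were among the 15 largest falls. Leaving out parental OTX015 library 1 or 2 reduced the lower genes to 779 and 869. With 2 libraries against 2, an exact permutation test of a single gene cannot go below 0.3333, so every call rests on the spread that limma shares between genes.

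**Figure D1:**
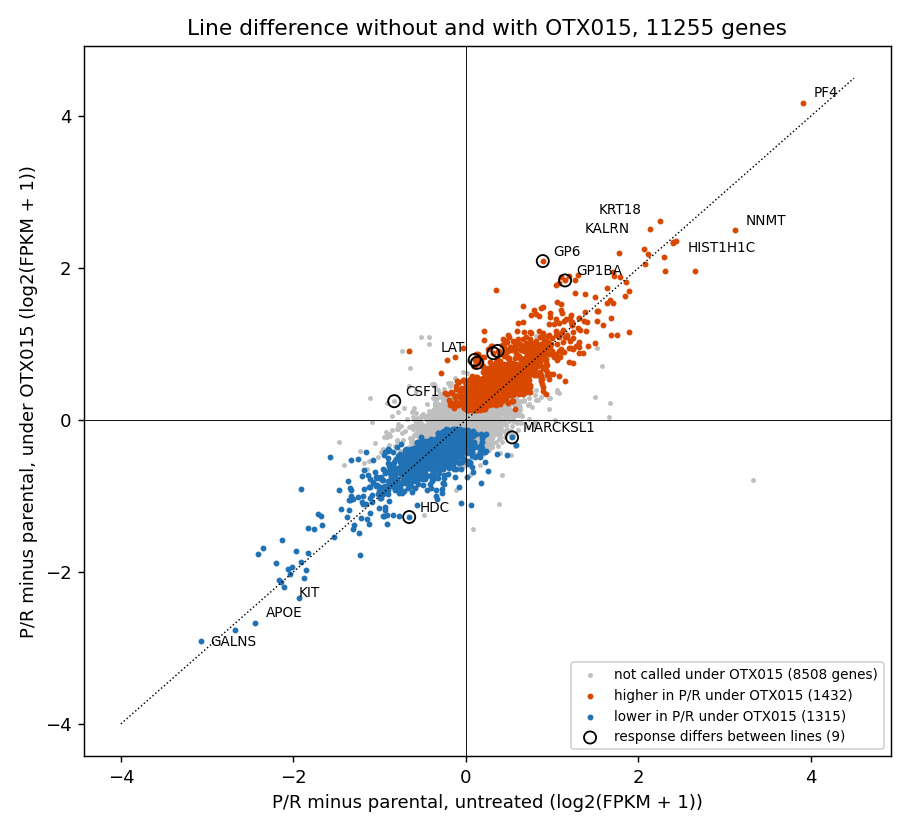
Each point is 1 of 11255 genes, placed by its P/R minus parental difference without drug (x axis) and under 1000 nM OTX015 (y axis), both in log2(FPKM + 1), with genes called under OTX015 coloured and the 9 genes whose drug response differed between the lines circled. Most coloured genes lie along the dotted line of equal differences, PF4 lies at the upper right at 3.91 and 4.18, and GALNS lies at the lower left at −3.06 and −2.90.

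Megakaryocyte and platelet genes stood higher in P/R cells. Of 36 listed genes 31 were tested, and 22 of these were higher (71.0%, beside 12.7% of all genes), 1 was lower and 8 did not pass. Their median difference was 0.53, beside −0.01 over all genes. PF4, a chemokine stored in platelet alpha granules, had 1.23 and 1.71 FPKM in the parental libraries and 43.2 and 44.0 in the P/R libraries. That is a ratio of 29.6 and a log2 difference of 4.18 ± 0.12 (SE; limma, adjusted p = 1.1e-07), the largest log2 difference among the genes named here. Without drug PF4 stood at 2.66 and 2.00 FPKM in parental cells and at 47.4 and 50.4 in P/R cells, so all 4 P/R libraries lay far above all 4 parental ones.

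The platelet receptors for collagen and for von Willebrand factor followed. GP6, the collagen receptor, measured 6.27 and 5.89 FPKM in parental cells and 30.5 and 27.9 in P/R cells (log2 2.09 ± 0.07, limma adjusted p = 2.1e-07). GP1BA, the ligand-binding chain of the von Willebrand factor receptor, had 12.6 and 13.9 FPKM in parental and 51.1 and 48.8 in P/R cells (log2 1.84 ± 0.06, limma adjusted p = 3.5e-07). It lies in a stretch of chromosome 17 whose genes were higher together, where the local median, taken over 41 neighbouring genes, was 0.53. GP9, another chain of that receptor, rose from 36.99 and 39.4 FPKM to 136 and 114 (log2 1.68 ± 0.09), and GP1BB, which links to GP1BA, from 5.38 and 5.69 to 10.4 and 10.6 (log2 0.81 ± 0.10). In all 4 genes the P/R libraries lay above the parental ones with no overlap, with and without drug. For GP6 the naming rule required this under the drug. An exact permutation test gives such a separation of 2 libraries from 2 a p of 0.3333, so it is a description only. The share of all genes tested that separated in this way is not given here, so the count has no background.

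The fibrinogen receptor did not move as a unit. Its beta chain ITGB3 had 53.2 and 54.6 FPKM in parental cells and 99.9 and 97.2 in P/R cells (log2 0.86 ± 0.05, limma adjusted p = 4.3e-06). Its alpha chain ITGA2B, the most abundant marker of the lineage here, had 378 and 386 FPKM in parental and 366 and 324 in P/R cells and did not pass (log2 −0.15, limma adjusted p = 0.13). This pair was singled out after its values were seen. The other members called higher included RAB27B, SELP, THBS1, TUBB1, P2RX1, TREML1, SERPINE2, LAT, F2RL3, MMRN1, FLI1, NBEAL2, F2R, ZFPM1 and NFE2, with differences from 1.44 for RAB27B to 0.21 for NFE2. They include the alpha granule proteins thrombospondin 1 (THBS1) and P-selectin (SELP), the thrombin receptors F2R and F2RL3, and the transcription factors FLI1 and NFE2. PLEK, a platelet protein kinase C substrate, was the member called lower, at 117 against 129 FPKM, and no member was lower in 6 of the 8 fits that left out 1 library. PPBP, a further alpha granule chemokine, stayed at or under 0.837 FPKM in every library. Without drug 21 of the 31 were higher and 1 lower, and 18 were called in the same direction in both comparisons, whose means share no library but whose spread comes from 1 fit. In these bulk libraries more cells of a megakaryocytic type and more of this RNA per cell cannot be told apart.

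**Figure D2:**
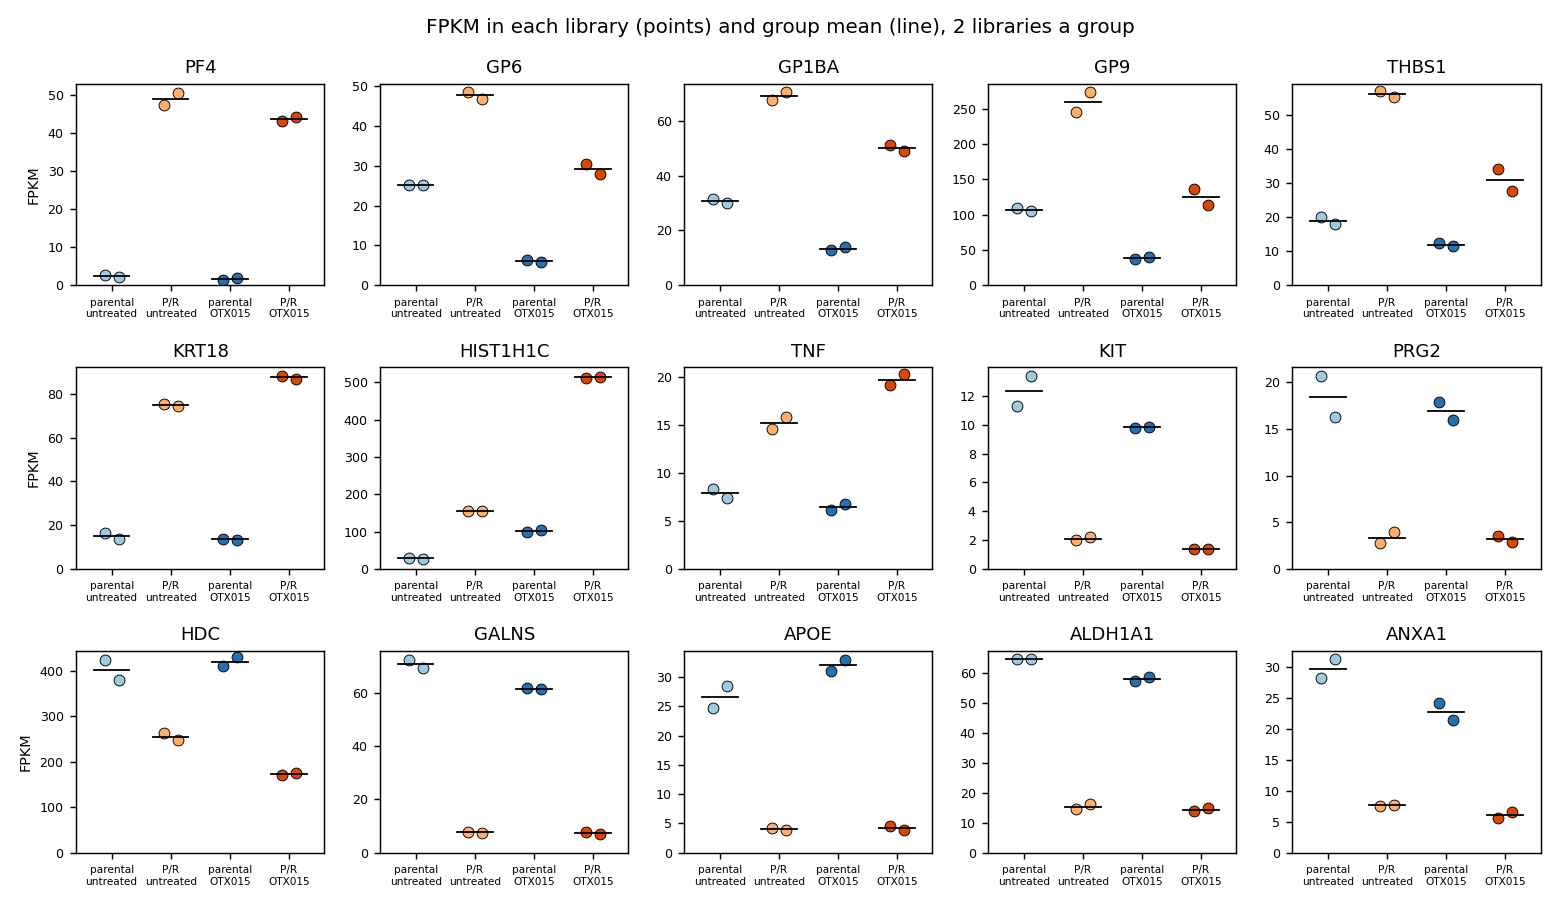
FPKM of 15 genes (y axes, each from 0 with its own range) in the 4 groups, with 1 point per library and a line at the group mean. In each panel the P/R libraries lie on 1 side of the parental libraries both without and with OTX015, as for PF4 at 43.2 and 44.0 against 1.23 and 1.71 FPKM under the drug. For the genes named as largest rises or falls the naming rule required this under the drug. The share of all genes with such a separation is not given, so the panels are a description only.

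KRT18 and KRT8, which pair in the simple intermediate filaments of epithelia and also occur in some leukaemia cells, were both higher. KRT18 had 13.8 and 13.2 FPKM in parental and 88.4 and 87.1 in P/R cells (log2 2.62 ± 0.08, limma adjusted p = 1.1e-07), and KRT8 3.99 and 3.92 against 22.0 and 21.5 (log2 2.20 ± 0.08). Of the epithelial and stromal list 4 of 17 genes were tested and all 4 were higher (beside 12.7% of all genes). The others were the endothelial adhesion molecules PECAM1 and CDH5. CDH5 was higher by 0.48 on the log2 scale, by 1.41 with a pseudocount of 0.1 and by 0.12 with 5. With the last its call was lost, as it was without P/R OTX015 library 1 or either treated parental library. The defining markers EPCAM, CDH1 and COL1A1 stayed under 1 FPKM in every library.

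Among 41 integrin, adhesion and cytoskeleton genes tested, 16 were higher (39.02%, beside 12.7% of all genes), 6 lower (14.6%, beside 11.7%) and 19 did not pass. ITGB5, the beta chain of a vitronectin receptor, led with 13.04 and 12.01 FPKM in parental and 48 and 54.5 in P/R cells (log2 1.95 ± 0.10, limma adjusted p = 2.9e-06). MYLK, the kinase that activates non-muscle and smooth muscle myosin, had 2.41 and 2.08 against 11.49 and 11.7 FPKM, and KALRN, an exchange factor for small GTPases, 0.731 and 1.67 against 11.4 and 11.1. S100A6, a calcium-binding protein, rose from 80.7 and 80.5 to 156 and 160 FPKM. The largest falls of the list were ANXA1, the phospholipid-binding annexin 1, with 24.2 and 21.4 FPKM against 5.52 and 6.60, and ITGB2, the beta chain of the leukocyte integrins, with 6.28 and 7.11 against 2.76 and 2.50. ESAM, an adhesion molecule of endothelium and platelets, was among the genes of at least 50 FPKM in both groups with the largest rises, at 171 and 173 against 347 and 337 (log2 0.98 ± 0.04).

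Histone genes were higher in P/R cells. Of 25 tested, 16 were higher (64.0%, beside 12.7% of all genes), 4 lower (16%, beside 11.7%) and 5 did not pass. The median difference was 0.65. HIST1H1C, a linker histone, had 99.0 and 105 FPKM in treated parental cells and 513 and 515 in treated P/R cells (log2 2.33 ± 0.05, limma adjusted p = 2.1e-08). HIST1H2BK had 208 and 244 FPKM against 1003 in both P/R libraries (log2 2.15 ± 0.07), and HIST1H2BJ 25.6 and 31.1 against 102 and 105 (log2 1.84 ± 0.14). The equal HIST1H2BK values are a tie of the quantile normalization and do not show how closely the replicates agreed. HIST1H1C had also risen with the drug in each line, from 29.3 and 27.5 FPKM in untreated parental and 154 and 155 in untreated P/R cells, and its ratio between the lines was close to 5 in both conditions (5.43 without and 5.05 with OTX015).

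The 4 histone genes called lower were H2AFJ, HIST2H2BF, HIST1H4E and H3F3A, of which 2, 2 and 1 were still called without P/R OTX015 library 1, parental OTX015 library 1 and parental OTX015 library 2. H2AFJ, an H2A variant, was listed at 0 in all 4 P/R libraries and at 5.16 to 5.86 FPKM in all 4 parental ones, so no fold is given. H2AFJ therefore passed the filter through parental libraries only, which favoured finding it lower. Its neighbour WBP11 had 49.0 to 54.2 FPKM in all 8 libraries. Core histone transcripts made in S phase lack a poly(A) tail, the labels do not say whether libraries were poly(A) selected, and reads of near-identical histone copies may have been divided between them. S phase genes did not rise alongside: of 41 S phase and E2F targets none was called higher and 8 were lower, CDC6, CCNE1, RFC4, UNG, MCM3, ORC1, SLBP and MCM7. CDC6 and RFC4 lie in the stretches described below, and with the local median subtracted CDC6 went from −0.87 to −0.25, RFC4 from −0.45 to 0.0446, and the 8 became 4. The 8 fell to 3 without parental OTX015 library 1, to 4 without parental OTX015 library 2 and to 5 without P/R OTX015 library 1 or either untreated P/R library. Their part in the histone difference was not tested.

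Genes of mast cells, basophils and eosinophils were lower. Of 13 tested, 8 were lower (61.5%, beside 11.7%), 1 was higher and 4 did not pass, and the median difference was −0.55. The 8 include TPSB2 and TPSAB1, which passed the filter through parental libraries only and so raise that share. KIT, the stem cell factor receptor that mast cells and blood progenitors depend on, had 9.79 and 9.86 FPKM in parental cells and 1.35 and 1.38 in P/R cells (7.17 times lower; log2 −2.19 ± 0.10, limma adjusted p = 1.7e-06). PRG2, the major basic protein of eosinophil granules, had 17.9 and 15.9 against 3.48 and 2.90 FPKM (log2 −2.1 ± 0.15). CPA3, the mast cell carboxypeptidase, had 6.78 and 5.61 against 0.936 and 1.57 FPKM (log2 −1.68 ± 0.15). HDC, which makes histamine, was far more abundant, at 411 and 430 FPKM against 171 and 175 (log2 −1.28 ± 0.06, limma adjusted p = 1.1e-06).

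The 4 other members called lower were GATA2, a transcription factor of progenitors and mast cells, the tryptases TPSB2 and TPSAB1, and HPGDS, a prostaglandin D synthase. The last 3 were under 2 FPKM in every treated library. TPSB2 and TPSAB1 were under 1 FPKM in every P/R library and passed the filter through parental libraries only. The filter therefore favoured finding them lower, and they add no support to the share called lower. LTC4S, which makes leukotriene C4, went the other way at 19.9 against 9.14 FPKM. The 6 mast cell or basophil markers summed to 431 to 448 FPKM in treated parental libraries and 175 to 179 in treated P/R libraries, nearly all of it HDC. The 9 megakaryocyte markers summed to 525 to 541 and 712 to 789 FPKM in the same libraries.

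Progenitor genes were split. Of 19 stem and progenitor genes 5 were higher (26.3%) and 6 lower (31.6%), beside 12.7% and 11.7% of all genes. GFI1, a repressor that holds blood progenitors in check, was lower with KIT, at 6.47 and 5.57 against 0.911 and 1.196 FPKM (log2 −1.77 ± 0.13, limma adjusted p = 1.6e-05). LMO2, a bridging factor of the GATA and TAL1 complex, was higher at 14.5 and 13.6 against 26.3 and 23.1 FPKM, and the homeobox gene MEIS1 at 6.45 and 8.78 against 13.2 and 12.8. Erythroid genes were divided likewise, with 12 of 45 higher (26.7%), 8 lower (17.8%) and a median of 0.02. The 8 depended in part on parental OTX015 library 1. HEMGN, a nuclear protein of blood precursors, was higher at 9.32 and 9.34 against 13.97 and 17.2 FPKM, and RHD, which carries the Rh D antigen, at 57.4 and 57.7 against 86.3 and 82.6. TFRC, the transferrin receptor, was lower, at 212 and 221 against 109 and 105 FPKM (log2 −1.01 ± 0.06). It lies in a stretch of chromosome 3 with a local median of −0.45, and with that subtracted it was −0.56. The lineage regulator GATA1 differed by 0.05 on the log2 scale and did not pass (limma adjusted p = 0.35).

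Many of the largest falls belonged to no list. GALNS, a lysosomal sulfatase that degrades keratan and chondroitin sulfate, had 61.7 and 61.3 FPKM in parental and 7.91 and 6.85 in P/R cells (8.34 times lower; log2 −2.90 ± 0.07, limma adjusted p = 7.3e-08). APOE, the lipid carrier apolipoprotein E, had 31.0 and 32.9 FPKM against 4.56 and 3.85 (log2 −2.67 ± 0.10). C16orf45 had 11.4 and 11.6 against 1.45 and 1.48, COL2A1, a fibrillar collagen of cartilage, 55.2 and 56.5 against 13.98 and 11.9, and BEX1 81.4 and 77.4 against 18.8 and 20.0. FEZ1, an adaptor for kinesin transport, had 17.1 and 16.4 against 3.59 and 4.14. STXBP6 and HSD17B8 stood at −2.13 and −1.96 on the log2 scale, STXBP6 in a stretch of chromosome 14 with a local median of −0.42. Each of these genes was also lower in untreated P/R cells. Among the largest rises outside the lists were NNMT, the nicotinamide N-methyltransferase, at 0.143 and 0.195 against 5.23 and 5.97 FPKM, C1orf116 at 1.51 and 1.25 against 11.8 and 10.7, and LY6G6E at 4.40 and 3.38 against 17.5 and 16.96. NNMT was under 1 FPKM in every parental library and passed the filter through P/R libraries only. HSD17B8 was under 1 FPKM in every P/R library and passed through parental libraries only. For both genes the filter favoured the direction found.

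The 4 genes of the series' axis differed little between the lines under the drug. CTNNB1 (beta-catenin) had 126 and 124 FPKM in parental and 117 and 115 in P/R cells (log2 −0.10, limma adjusted p = 0.14), and TCF7L2, its partner on DNA, 5.01 and 5.68 against 4.63 and 5.22 (log2 −0.10, limma adjusted p = 0.55). Neither passed. JMJD6, a lysyl hydroxylase, was higher at 19.1 and 17.9 against 23.5 and 25.02 (log2 0.37 ± 0.07, limma adjusted p = 0.0032). MYC was lower in P/R cells, at 434 in both parental libraries and 386 and 394 in P/R ones (log2 −0.16 ± 0.03, limma adjusted p = 0.0088), and without a variance trend its adjusted p was 0.082. MYC values were tied within every group but treated P/R cells. Quantile normalization gives equal ranks the same value, so this SE may understate the spread. Of 37 MYC targets in ribosome assembly and nucleotide supply 4 were higher (10.8%) and 7 lower (18.9%), beside 12.7% and 11.7% of all genes. Their median was −0.02. With the local median subtracted 1 was higher and 5 were lower, and MYBBP1A and TSR1 in the higher stretch of chromosome 17 did not pass. The 7 also depended on parental OTX015 library 1 and P/R OTX015 library 1. Of 30 WNT components and targets 2 were higher and 6 lower, the 2 falling to 1 without P/R OTX015 library 1 or parental OTX015 library 1. Among the lower was the receptor FZD7 at 7.34 and 6.82 against 2.47 and 2.67 FPKM (log2 −1.18 ± 0.10).

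Among the drug's own targets and their partners few genes were called. Of 20 BET and P-TEFb genes none was called higher, and HEXIM1, CDK12 and BRD2 were lower, of which 1 was still called without P/R OTX015 library 2. CDK12 lies in the lower stretch of chromosome 17, with a local median of −0.52, and with that subtracted it was called higher (log2 0.23, limma adjusted p = 0.035). HEXIM1, a transcript that marks exposure to BET inhibitors, had 84.6 and 91.1 FPKM in treated parental cells and 64.3 and 65.0 in treated P/R cells (log2 −0.44 ± 0.05, limma adjusted p = 3.9e-04), and −0.29 with its local median of −0.15 subtracted. It was induced in both lines, from 26.7 and 26.5 FPKM in untreated parental and 23.2 and 23.0 in untreated P/R cells, and the difference between the lines' inductions did not pass (log2 −0.24, limma adjusted p = 0.36). BRD3 differed by −0.09 on the log2 scale and did not pass.

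Signalling and survival genes changed in both directions. Of 21 JAK-STAT receptors, feedback genes and targets 6 were higher and 6 lower (28.6% each, beside 12.7% and 11.7% of all genes). BCL2L1, the survival factor BCL-XL, had 109 and 110 FPKM in parental and 175 and 165 in P/R cells (log2 0.63 ± 0.04, limma adjusted p = 1.4e-05). PTPN6, the phosphatase SHP-1 that dampens cytokine receptors, had 37.3 and 31.7 against 53.8 and 47.3. STAT3, STAT5A and STAT5B were lower, STAT3 at 107 and 110 against 73.7 and 68.3 FPKM (log2 −0.61 ± 0.05). All 3 lie in a stretch of chromosome 17 with a local median of −0.56 to −0.57, and with that subtracted STAT3 was at −0.04 and did not pass. In the BCL2 family 2 of 16 genes were higher, BCL2L1 and BAD (12.5%, near the 12.7% of all genes), and BIRC5 was lower (6.25%, beside 11.7%). The call of BAD did not hold without P/R OTX015 library 1 or either treated parental library. With the local median subtracted BAD was at 0.20 and did not pass. BIRC5 lost its call in most fits that left out 1 library.

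Of 21 CDK inhibitors, D cyclins and stress genes 8 were higher (38.1%) and 4 lower, the 4 falling to 2 without parental OTX015 library 2. The D cyclins went opposite ways. CCND2 had 6.79 and 6.42 FPKM in parental and 1.87 and 1.77 in P/R cells (log2 −1.43 ± 0.09, limma adjusted p = 7.3e-06), whereas CCND3 had 374 and 397 against 572 and 552 (log2 0.54 ± 0.04). GDF15, a stress cytokine, had 1.35 and 1.17 against 4.68 and 5.25 FPKM. Of 32 mitosis genes 3 were higher (9.38%) and 4 lower (12.5%), near the 12.7% and 11.7% of all genes. The 4 depended in part on P/R OTX015 library 1 and on parental OTX015 library 1. BUB1, a spindle checkpoint kinase, was higher at 73.2 and 71.7 against 104 and 111 FPKM, and UBE2C, a ubiquitin carrier of the anaphase complex, was lower at 85.4 and 86.6 against 62.2 and 62.4. AURKB was higher and TOP2A lower in the direction of their neighbours on chromosome 17, where the local medians were 0.54 and −0.62.

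Glycolytic genes were modestly higher. Of 27 tested 13 were higher (48.1%) and 3 lower (11.1%), beside 12.7% and 11.7% of all genes, with a median of 0.15. The 13 depended in part on parental OTX015 library 2. VEGFA, a hypoxia-responsive angiogenic factor kept in this list, had 4.85 and 5.12 FPKM against 13.6 and 12.7 (log2 1.25 ± 0.08, limma adjusted p = 6.3e-06). SLC16A3, the lactate exporter MCT4, had 79.6 and 82.1 against 147 and 140 (log2 0.82 ± 0.04), and ENO2 and the glucose carrier SLC2A3 were higher by 0.52 and 0.48. TPI1, GPI, PGK1, PGAM1, LDHA, ENO1, PDK1, PKM and ALDOA, mostly abundant enzymes of the pathway, were higher by 0.14 to 0.42. EGLN3, SLC2A1 and SLC16A1 were the members called lower, of which 1 was still called without P/R OTX015 library 1 or parental OTX015 library 1. Of 34 respiratory chain and mitochondrial genes 7 were higher and 2 lower. The 7 fell to 4 without either treated parental library, and the 2 to 0 without P/R OTX015 library 1 or parental OTX015 library 1 and to 1 without parental OTX015 library 2.

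Detoxifying genes were called in both directions. Of 38 drug efflux, detoxifying and redox genes 14 were lower (36.8%, beside 11.7% of all genes) and 9 higher (23.7%, beside 12.7%). Their median was −0.12. The 14 depended in part on P/R OTX015 library 2 and on each treated parental library. With the local median subtracted 8 were lower and 7 higher. ALDH1A1, a retinaldehyde dehydrogenase used as a stem cell marker, had 57.3 and 58.7 FPKM in parental and 13.9 and 14.9 in P/R cells (4.03 times lower; log2 −1.94 ± 0.07, limma adjusted p = 3.1e-07). GSTP1, a glutathione transferase, went the other way at 118 and 128 against 250 and 246 (log2 1.01 ± 0.05). DHRS2, a short-chain dehydrogenase, was higher by 1.12 although its neighbours on chromosome 14 had a local median of −0.49. ABCC3 and ABCC1, exporters of drug conjugates, were also called higher, ABCC3 from 0.472 to 2.29 FPKM and ABCC1 from 8.52 to 12.8.

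In amino acid metabolism, PHGDH, the first enzyme of serine synthesis, had 42.9 and 41.6 FPKM against 17.8 and 16.3 (log2 −1.26 ± 0.06, limma adjusted p = 1.9e-06). Of the 19 ATF4 and amino acid stress genes 8 were lower (42.1%, beside 11.7% of all genes) and 2 higher (10.5%, beside 12.7%). The 2 hung on P/R OTX015 library 1 and each treated parental library, and in part on each untreated P/R library. The 8 fell to 4 without P/R OTX015 library 2, to 5 without parental OTX015 library 1 and to 3 without parental OTX015 library 2. Of 29 cholesterol and fatty acid synthesis genes 4 were higher and 6 lower. SREBF1, which encodes a master regulator of lipid synthesis, was higher by 0.69, and ACLY and ACACA, enzymes of fatty acid synthesis, were lower by 0.64 and 0.37. All 3 lie in stretches of chromosome 17 with local medians of 0.48, −0.59 and −0.49. The 4 fell to 2 without parental OTX015 library 2 and the 6 to 3 without parental OTX015 library 1. Of 27 lysosomal genes 2 were higher and 5 lower. The cathepsins CTSZ and CTSB moved in opposite directions, CTSZ from 39.3 and 40.2 to 79.2 and 77.2 FPKM and CTSB from 177 and 161 to 110 and 101.

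Of 20 NF-kB and inflammatory genes tested 5 were higher and none was called lower. TNF, the tumour necrosis factor gene, had 6.14 and 6.78 FPKM against 19.1 and 20.3 (log2 1.48 ± 0.09, limma adjusted p = 6.0e-06), and TNFAIP2, one of its target genes, 8.47 and 7.53 against 14.9 and 13.5. Of 23 AP-1 and immediate early genes 6 were higher and FOS was lower, with no member lower in 6 of the 8 fits that left out 1 library. The phosphatase gene DUSP6, which switches off ERK and is itself induced by ERK signalling, had 3.84 and 3.50 against 9.60 and 12.2 (log2 1.34 ± 0.13). Of 27 interferon-stimulated genes 4 were higher and 5 lower, led by MX2 at 16.4 and 16.2 against 8.66 and 8.21 FPKM. The 4 fell to 2 without P/R OTX015 library 1 or either treated parental library. Of 20 antigen presentation genes 3 were higher and 6 lower, with HLA-DPA1 at 17.5 and 18.1 against 11.2 in both P/R libraries. The 3 fell to 1 without P/R OTX015 library 1 or parental OTX015 library 2, and the 6 to 3 without P/R OTX015 library 2 or parental OTX015 library 2.

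Of 17 monocyte and granulocyte genes tested 7 were higher (41.2%) and 1, ANXA1, was lower (2 without either untreated parental library). The higher members were VCAN, CD68, LST1, LGALS1, FCGR2A, S100A4 and SPI1. LST1, a transmembrane protein of myeloid cells, had 51.3 and 50.3 FPKM against 89.7 and 81.6 (log2 0.74 ± 0.07, limma adjusted p = 4.9e-05). CD68, a lysosomal glycoprotein of macrophages, had 6.60 and 8.12 against 15.3 and 13.5, with a local median of 0.57 on chromosome 17. By contrast the summed level of the 9 defining markers, nearly all of it CD33 and LYZ, was 45.4 to 48.9 FPKM in treated parental and 43.9 to 47.8 in treated P/R cells. Of 9 lymphocyte markers 5 were lower and 2 higher, the 2 falling to 1 without either treated P/R library or parental OTX015 library 2, and the 5 to 3 without either treated P/R library or parental OTX015 library 2 and to 2 without parental OTX015 library 1. The 8 defining lymphocyte markers summed to 6.74 to 6.98 FPKM in treated parental cells and 2.96 to 3.23 in treated P/R cells, with CD3D and MS4A1 listed at 0.

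Of 16 receptor, channel and secreted genes chosen earlier as sensitive to OTX015 on these samples, 6 were higher and 2 lower, and the 2 fell to 1 without parental OTX015 library 2. AQP1, a water channel of red cells, was the lowest of them at 4.28 and 4.02 against 0.481 and 0.312 FPKM (log2 −1.89 ± 0.10, limma adjusted p = 3.4e-06). Of 22 endoplasmic reticulum chaperone genes 4 were higher and 2 lower, the 4 falling to 1 without P/R OTX015 library 1 and to 2 without parental OTX015 library 1. Of 19 heat shock genes 1, HSPE1, was lower (2 without P/R OTX015 library 2). Of 16 reference genes 3 were higher and 5 lower, the 5 falling to 3 without P/R OTX015 library 1 or parental OTX015 library 2 and to 1 without parental OTX015 library 1.

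Cancer-testis genes of the MAGEA cluster on the X chromosome were higher. These genes are normally silent outside the germ line and are often switched on in cell lines. Of 23 listed cancer-testis genes 8 were tested and 5 were higher (62.5%, beside 12.7% of all genes), 4 of the MAGEA cluster and PRAME. TEX14, near 1 FPKM, was called lower, and no member was lower in 6 of the 8 fits that left out 1 library. MAGEA6 had 2.20 and 2.18 FPKM in parental and 14.3 and 14.2 in P/R cells (log2 2.25 ± 0.10, limma adjusted p = 1.3e-06), and MAGEA3 2.25 and 2.34 against 14.6 and 13.4. MAGEA2, MAGEA2B and MAGEA12 were each under 0.4 FPKM in treated parental libraries. Of the treated libraries only those of P/R cells could bring them past the filter of 1 FPKM, so the filter favoured finding them higher. MAGEA2B was under 1 FPKM in untreated parental libraries too, and was tested through P/R libraries only. These copies are near-identical in sequence, so reads may have been divided between them and they are not independent measurements.

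**Figure D3:**
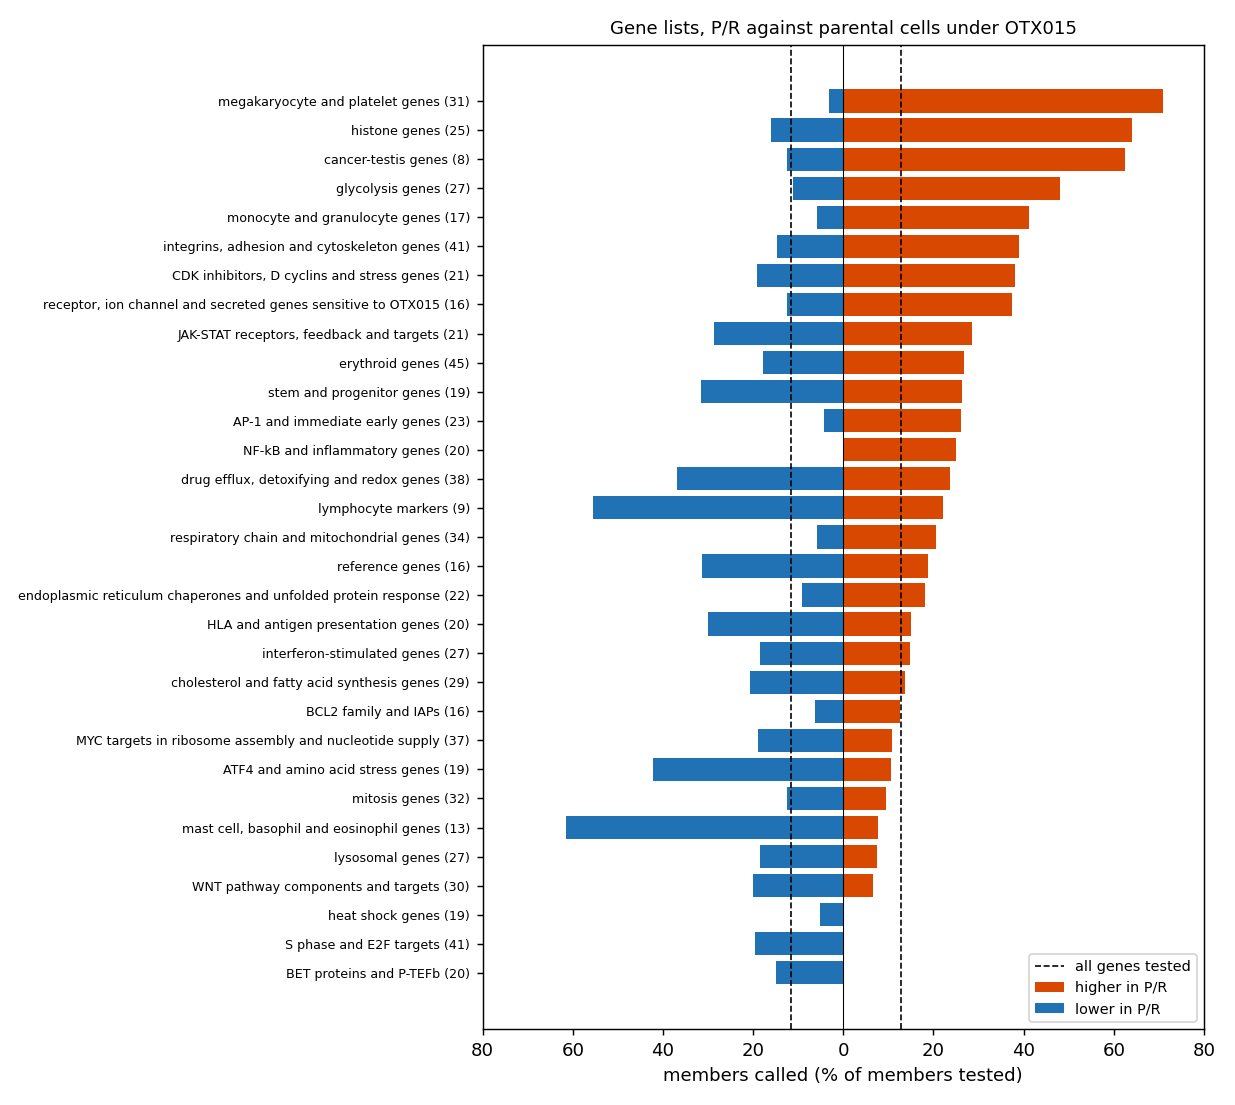
Share of tested members called higher (orange, to the right) or lower (blue, to the left) in P/R against parental cells under OTX015, as a percentage of members tested (x axis), for each list with at least 8 members tested (number in brackets). Dashed lines mark the shares over all genes tested, 12.7% and 11.7%, and the longest bars are 71.0% higher for megakaryocyte genes and 61.5% lower for mast cell genes. The mast cell bar includes TPSB2 and TPSAB1, which passed the filter through parental libraries only.

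Most of the line difference was also present without the drug. In untreated cells 1312 genes were higher in P/R (11.7%) and 1335 lower (11.9%), from the 4 libraries that supply no mean to the comparison under OTX015. Both comparisons take their spread from the 1 fit over all 8 libraries, so their calls are not independent. The number called in the same direction in both comparisons was 1791, which is 65.2% of the calls under OTX015 and 67.7% of those without drug. With each comparison fitted on its own 4 libraries, 1203 genes were higher and 1059 lower under OTX015, and 1534 were called in the same direction in both. Of the 1432 genes higher under OTX015, 489 were not called without drug, but 432 of these had the same sign. Of the 1315 lower genes 461 were not called without drug, and 394 had the same sign. A gene that passes in 1 condition only is not shown to differ between conditions, and among these genes the difference in drug response itself passed for NR5A1 and LAT.

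Opposite calls with and without drug were given to 6 genes. ITPR1, a calcium release channel, had 5.79 and 6.67 FPKM in parental and 9.42 and 10.2 in P/R cells without drug, but 13.3 and 12.8 against 9.37 and 11.0 under OTX015. MFSD9 and MARCKSL1 also changed from higher to lower in P/R cells, and ABHD5, an activator of fat breakdown, from lower to higher. PAPOLA and CHP1, named to complete the 6, were lower by 0.19 and 0.18 under OTX015. The call of ITPR1, MFSD9, ABHD5 and MARCKSL1 under OTX015 was lost on leaving out 1 library, with limma adjusted p up to 0.21, 0.18, 0.14 and 0.054, the last without parental OTX015 library 2. Of these 6 genes the difference in response passed for MARCKSL1.

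The response to OTX015 differed between the lines in 9 of 11255 genes (0.08%), 7 with a more positive response in P/R cells (0.0622%) and 2 with a more negative one (0.0178%). OTX015 itself changed 50.4% of genes in parental cells and 44.3% in P/R cells. For the difference in response at an unadjusted p under 0.05 there were 1080 (9.60%). GP6 had the largest difference. The drug lowered it from 25.3 FPKM in both untreated parental libraries to 6.27 and 5.89 (log2 −1.89), and from 48.6 and 46.9 to 30.5 and 27.9 in P/R cells (log2 −0.69). The responses differed by 1.2 ± 0.10 on the log2 scale (limma adjusted p = 0.0041), and the call held in all 17 other settings that gave it a value. In at least 1 fit that left out a library the call held only narrowly. Of those 17, MARCKSL1 kept its call in 16, and the other 7 genes in 3 to 7.

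The remaining positive differences had the same form, a fall under OTX015 that was smaller in P/R cells. LAT, an adaptor of T cell and platelet collagen receptor signalling, fell from 237 and 228 to 69.2 and 68.8 FPKM in parental cells and from 255 and 254 to 125 and 110 in P/R cells (difference 0.62, limma adjusted p = 0.048). GP1BA fell from 31.3 and 29.9 to 12.6 and 13.9 FPKM and from 67.7 and 70.7 to 51.1 and 48.8 (difference 0.69, limma adjusted p = 0.048). NR5A1, the steroidogenic nuclear receptor SF-1, fell from 59.4 and 59.1 to 33.1 and 30.9 in parental cells but from 63.8 and 63.6 to 57.4 and 54.9 in P/R cells (difference 0.69, limma adjusted p = 0.026). In NR5A1 and LAT the lines did not differ by the test without drug (log2 0.10 and 0.13) and P/R cells were higher with it (log2 0.79 and 0.75).

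CSF1, the macrophage growth factor, fell from 15.9 and 15.1 FPKM to 1.61 and 1.92 in parental cells and from 8.28 and 8.29 to 2.50 and 2.08 in P/R cells (difference 1.08, limma adjusted p = 0.048), so that the lines differed without drug and not by the test with it. DMTN, a red cell membrane protein that bundles actin, and TRIM15 completed the 7, at 0.54 and 0.56, and were named for that reason outside the naming rule. The 2 negative differences were unlike each other. MARCKSL1, an actin-binding kinase substrate, was induced from 41.4 and 41.6 to 180 and 190 FPKM in parental cells and from 60.4 and 60.8 to 160 and 155 in P/R cells (difference −0.76, limma adjusted p = 0.0041). HDC had 425 and 380 FPKM without and 411 and 430 with drug in parental cells, a change that did not pass (log2 0.06), but fell from 263 and 247 to 171 and 175 in P/R cells (difference −0.62, limma adjusted p = 0.048). Of the 31 megakaryocyte and platelet genes tested 3 were among the 9, GP6, GP1BA and LAT, beside 0.08% of all genes. Of the 17 other settings GP6 kept its call in 17, LAT in 4 and GP1BA in 3. The list was chosen with earlier results of these data known.

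**Figure D4:**
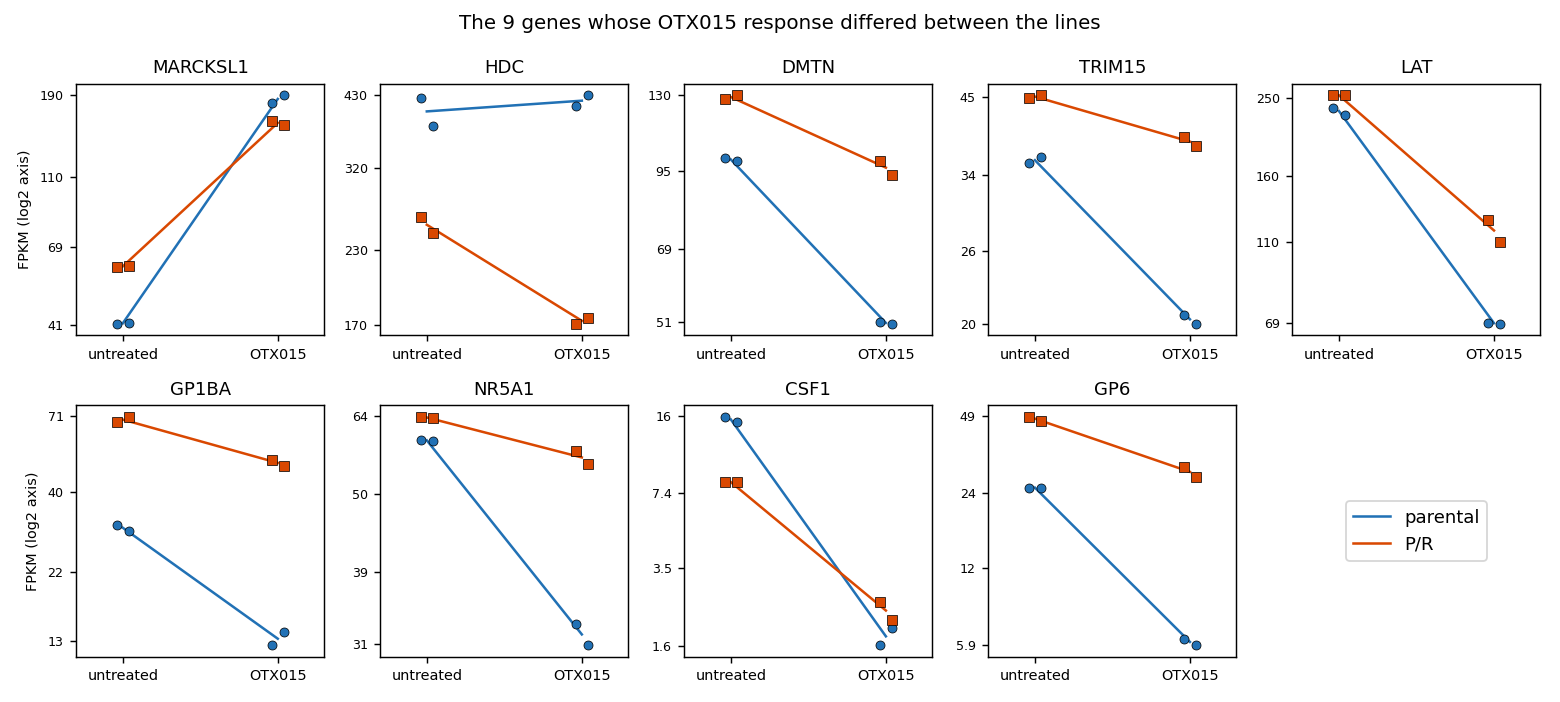
FPKM (y axes on a log2 scale, each with its own range) of the 9 genes without drug and under 1000 nM OTX015, with circles for parental libraries, squares for P/R libraries and lines joining the means of 2 libraries. For GP6 the parental line drops from 25.3 to 6.08 FPKM and the P/R line from 47.8 to 29.2, while for HDC the P/R line drops and the parental line does not.

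The promoters of 6 of these genes, all of the 9 that the promoter table holds, are printed because these are the genes whose response to the drug differed between the lines. Each is the 250 bases before the annotated start (RefSeq, GRCh38.p14), 5′ to 3′ on the gene's strand, with motif letters in capitals. The motifs searched on both strands were an E-box with the letters CACGTG, a TCF/LEF motif with CTTTGAA or CTTTGAT, a motif for GATA factors with the letters AGATAA, a STAT motif with TTCNNNGAA, an AP-1 motif with TGANTCA, and the IRF element, none of which contains another whole. They lie at chr19:55038265-55038514 (minus strand, GP6), chr16:28984553-28984802 (plus strand, LAT), chr9:124507400-124507649 (minus strand, NR5A1), chr15:50265727-50265976 (minus strand, HDC), chr1:32336234-32336483 (minus strand, MARCKSL1) and chr6:30163296-30163545 (plus strand, TRIM15).
GP6: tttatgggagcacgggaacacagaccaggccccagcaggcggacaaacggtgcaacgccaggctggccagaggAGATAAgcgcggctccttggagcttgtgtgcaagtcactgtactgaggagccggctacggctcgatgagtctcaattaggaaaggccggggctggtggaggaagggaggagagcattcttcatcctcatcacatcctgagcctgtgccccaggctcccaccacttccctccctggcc
LAT: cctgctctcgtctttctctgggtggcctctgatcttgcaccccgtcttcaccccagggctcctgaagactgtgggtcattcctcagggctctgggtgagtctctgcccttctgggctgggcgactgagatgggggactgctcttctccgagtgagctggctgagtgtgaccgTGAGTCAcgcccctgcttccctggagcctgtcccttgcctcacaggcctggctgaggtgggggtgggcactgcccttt
NR5A1: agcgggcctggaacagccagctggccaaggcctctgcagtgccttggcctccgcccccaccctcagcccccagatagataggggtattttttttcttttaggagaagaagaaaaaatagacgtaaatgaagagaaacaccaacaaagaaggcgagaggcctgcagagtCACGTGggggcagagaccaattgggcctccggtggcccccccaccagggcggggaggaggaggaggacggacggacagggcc
HDC: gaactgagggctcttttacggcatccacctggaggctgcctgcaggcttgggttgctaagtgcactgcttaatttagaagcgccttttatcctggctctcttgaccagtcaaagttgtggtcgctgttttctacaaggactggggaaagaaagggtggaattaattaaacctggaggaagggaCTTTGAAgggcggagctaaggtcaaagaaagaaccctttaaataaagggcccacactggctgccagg
MARCKSL1: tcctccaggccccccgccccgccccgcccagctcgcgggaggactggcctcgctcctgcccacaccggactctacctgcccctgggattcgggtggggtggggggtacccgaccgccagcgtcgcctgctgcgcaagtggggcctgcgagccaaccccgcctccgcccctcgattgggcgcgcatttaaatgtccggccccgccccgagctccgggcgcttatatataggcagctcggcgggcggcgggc
TRIM15: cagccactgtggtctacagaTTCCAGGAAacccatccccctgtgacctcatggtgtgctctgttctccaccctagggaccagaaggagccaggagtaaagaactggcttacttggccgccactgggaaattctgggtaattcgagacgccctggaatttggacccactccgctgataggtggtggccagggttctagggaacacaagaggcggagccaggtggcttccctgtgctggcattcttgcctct

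The capitals mark a GATA match in GP6 that begins 177 bases before the start, an AP-1 match in LAT at 78, an E-box in NR5A1 at 82, a TCF/LEF match in HDC at 67 and a STAT match in TRIM15 at 230. MARCKSL1 held none of these letters in this window. A match is a description of letters, not evidence that a factor binds. Over the 300 bases around the start (250 before, 50 after), 9180 of the tested genes had a promoter in the table. The GATA letters were in 4.99% of these, in 6.45% of the 1117 promoters of genes higher in P/R cells under OTX015 and in 4.64% of the 1077 of genes lower. For the TCF/LEF letters the shares were 3.70%, 2.86% and 5.01%, and for the E-box 10.6%, 9.31% and 12.3%. Of the 20 megakaryocyte genes with a promoter in the table, 1 held the GATA letters, GP6.

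Part of the line difference lay in long stretches of neighbouring genes. With a running median over 41 tested genes in chromosome order, 4 stretches of at least 40 genes lay beyond 0.3 on the log2 scale. On chromosome 17, 204 genes from C17orf97 to TMEM11 were higher in P/R cells, with a median of 0.53 and 164 called higher (80.4%). Further along that chromosome 193 genes, from LGALS9 to GPATCH8, were lower, with a median of −0.54 and 167 called lower (86.5%). On chromosome 3, 92 genes from TBL1XR1 to RPL35A were lower (median −0.48, 68 called), and so were 86 genes from TTC5 onward on chromosome 14 (median −0.48, 60 called). Without drug the 4 medians were 0.52, −0.53, −0.40 and −0.52.

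The higher stretch held 164 (11.45%) of all genes called higher under OTX015, and the 3 lower stretches held 295 (22.4%) of all genes called lower. Among the genes there was EIF4A2, a translation initiation helicase of chromosome 3, which was lower at 226 and 213 against 111 and 124. PF4, GP6, GP9, KIT, HDC, KRT18, HIST1H1C, GALNS and APOE lie outside the stretches. With the running median subtracted, 22 higher megakaryocyte genes became 25, 16 higher histone genes became 15 and 8 lower mast cell genes remained 8 in number. DNA copy number was not measured in these files, and its part in the stretches was not tested.

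**Figure D5:**
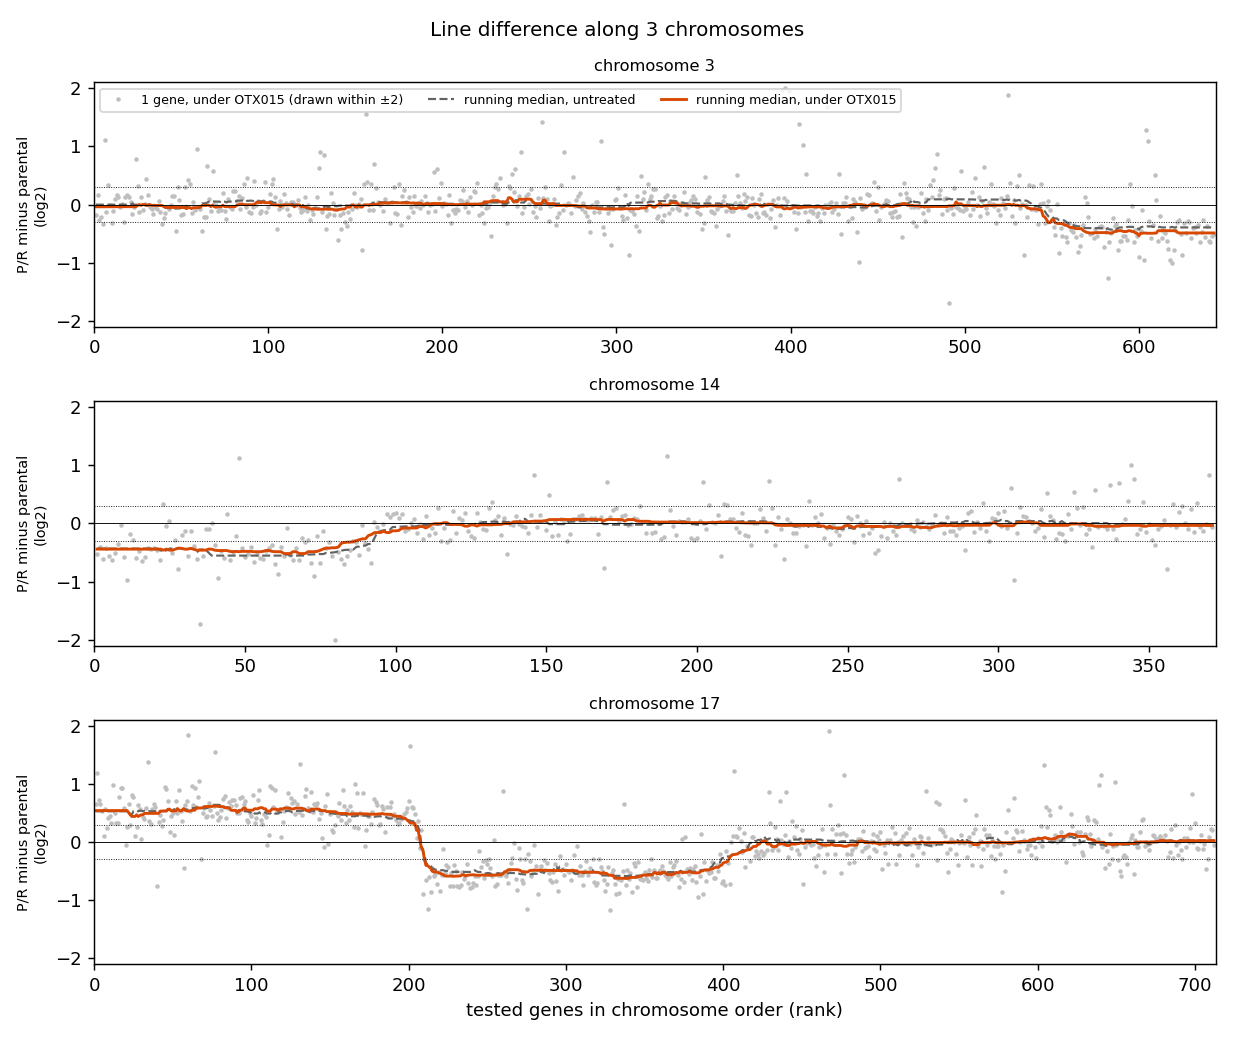
Log2 difference between P/R and parental cells (y axis) of the tested genes of chromosomes 3, 14 and 17 by rank along the chromosome (x axis), with grey points for single genes under OTX015 and lines for the running median over 41 genes with (orange) and without (dashed) drug; dotted lines mark ±0.3. The 2 lines run together, at about 0.53 and then −0.54 in the 2 stretches of chromosome 17.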

How the data were processed

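RNA of 8 samples (4 groups of 2) was sequenced after a kit extraction and DNase treatment, per the labels' protocols. The authors deposited a single table, with 19718 rows of coding genes and a column for each library. Its values are taken to be FPKM from their range and from TopHat2 2.0, Cufflinks 2.0 and hg19, per the submitters' processing notes. No label describes other steps. The FPKM had been quantile normalized before they were deposited, as the values show: from a mean of 1 upward, sorted values differ by at most 0.136% between libraries, and each library sums to 678133. Depth is therefore unknown. Of the symbols 28 had become numbers and were read through their Ensembl identifiers. Genes with at least 1 FPKM in at least 2 libraries were tested as log2(FPKM + 1), a scale that understates changes of low genes, in limma 3.58.1 (R 4.3.3) with 4 group means, a variance trend, 4 residual degrees of freedom, two-sided tests and Benjamini-Hochberg adjustment over 11255 genes at 0.05. Adjusted p-values are from this fit unless another setting is named beside them, and it was tested on simulated data. Ratios are of mean FPKM. Gene order for 11227 genes came from a GRCh38 annotation by Ensembl identifier. Members, the 33 gene lists and the rule for named genes were chosen with earlier results of these data known. The rule takes the 15 largest rises and falls (adjusted p under 0.05, mean of at least 5 FPKM in the higher group, no overlap), the 5 and 5 largest at 50 FPKM or more, the series' axis, up to 4 members per list and the largest differences in response. Alternatives were other pseudocounts (0.1 and 5), filters, no variance trend, centring, replicate blocks, a fold minimum, a local median and leaving out each library. The replicate numbers did not pair the samples.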

Additional observations from a re-analysis of the deposited data

Results flagged for a closer look

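In 9 genes the response to OTX015 (log2 difference under drug minus without) differed between P/R and parental cells by the interaction term of limma, as a test of the difference itself. The P/R response was the more positive for GP6 (1.2), CSF1 (1.08), NR5A1 (0.69), GP1BA (0.69), LAT (0.62), TRIM15 (0.56) and DMTN (0.54), and the more negative for MARCKSL1 (−0.76) and HDC (−0.62). GP6 is a platelet collagen receptor, GP1BA a chain of the von Willebrand factor receptor and LAT an adaptor in platelet and T cell signalling. TRIM15, a RING-type ubiquitin ligase, fell from 35.5 and 36.3 to 20.7 and 20.1 FPKM in parental cells and from 44.8 and 45.2 to 38.9 and 37.8 in P/R cells. DMTN fell from 100.3 and 98.9 to 50.9 and 50.6 FPKM in parental cells and from 128 and 130 to 99.1 and 93.5 in P/R cells. Groups of 2 libraries are too small for a check of outlying samples.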

How the results depend on the processing

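Of 145 named genes called under OTX015, 108 kept their call in all 18 settings other than the fold minimum and 37 lost it in at least 1. A log2 difference of at least 1 left 128 higher and 65 lower genes under OTX015, 112 and 88 without drug, 129 called in the same direction in both, and 2 and 0 differences in response. Subtracting the local median left 852 lower genes under OTX015 and turned the sign of CDK12 (0.23), RFC4 (0.0446), TOP2A (0.12), ACACA (0.12), IFI35 (0.0599), IRF9 (0.0412), PCK2 (0.0723) and POLR2A (−0.15), all of which lie in the stretches. Leaving out each library in turn gave 984 to 1372 higher and 779 to 1262 lower genes under OTX015, 827 to 1317 and 787 to 1371 without drug, 1271 to 1555 shared, and 1 to 6 positive and 1 to 2 negative differences in response. A lone library is then assumed to vary like the other groups. Positive differences in response numbered 7 and became 2 with no filter, 3 without a variance trend, 3 and 18 with pseudocounts of 0.1 and 5, and 3 with the local median subtracted. Negative ones numbered 2 and became 0, 1, 11 and 1 without a variance trend, with those pseudocounts and with the local median subtracted. The cause was not tested. A fit of only the groups compared is the same fit for the difference in response and was not run again. A replicate block, with numbers that only name the samples (r of deviations −0.12 between the treated groups), gave 1340 and 1215 genes under OTX015 and 1 positive and 1 negative difference in response; a crossed block, added after seeing the data, gave 1346 and 1202, and 1 and 1. Of the list counts, 1032 of 1254 stayed within 1.5 times. Counts of calls rest on 2 libraries a group of unknown depth, and low genes cannot be given a counting error.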

Other observations

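On chromosome 21, which held no stretch by the rule used, 39 of 114 tested genes were lower in P/R cells under OTX015 (34.2%, beside 11.7% over all genes) and 6 were higher, with a median of −0.15 under the drug and −0.14 without it. This chromosome was singled out after its values were seen.

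Beside GALNS, its next gene TRAPPC2L, a subunit of the TRAPP vesicle tether, was higher in P/R cells, at 38.6 and 32.1 against 101 and 109 FPKM under OTX015 (log2 1.54 ± 0.09, limma adjusted p = 4.0e-06). CBFA2T3, a corepressor of blood cells further along, was lower at 153 and 167 against 98.6 and 93.6 FPKM, while APRT, on the other side of GALNS, had 238 and 242 against 273 and 253. Without drug the values were alike, with TRAPPC2L at 33.5 and 29.6 against 106 and 105 FPKM. The labels do not say whether the counting used strand. These genes were singled out after their values were seen.

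GAGE12B, a germ line gene with many near-identical copies, stood at 4.74 and 30.3 FPKM in untreated P/R cells, 0.790 and 0 in untreated parental cells, 1.99 and 0 in treated parental cells and 0 in both treated P/R libraries, a spread within groups as large as any difference between them.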
